A study of Homo sapiens with 18 samples.

Results

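The 10 genes described here are FHIT, WWOX, IMMP2L, AUTS2, EXOC4, NBEA, VPS13B, FTO, RABGAP1L and PARD3. They were listed by name because each has a very long transcription unit, and several of them lie at common fragile sites. Of the 23622 genes in the count table, these 10 were taken by their symbols, and all 10 were among the 15760 genes that passed the filter on low counts and were tested. A2780 is a human ovarian carcinoma cell line that is sensitive to cisplatin, and A2780cis, called Acis below, is its resistant counterpart. Acis cultures were exposed to 1 µM cisplatin every 3 passages. RNA-seq was performed on 3 libraries in each of 4 groups: A2780 control, A2780 after 3 h in 200 µM cisplatin, Acis control, and Acis after the same treatment. For ATAC-seq, which marks accessible chromatin, there was 1 peak list for each of the same conditions. Each side of the comparison between lines is 1 cell line, so resistance and any other difference between the lines cannot be told apart.

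Cisplatin joins neighbouring bases on 1 DNA strand, mostly pairs of guanines, and an elongating RNA polymerase II stalls at such an adduct on the strand it reads. The chance that a polymerase meets an adduct grows with the distance it must travel, so a very long gene is a large target. Common fragile sites are regions that break or show gaps on metaphase chromosomes when replication is slowed. FHIT lies at FRA3B, WWOX at FRA16D and IMMP2L at FRA7K, and these genes are frequent places of deletion in tumour cell lines.

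Library totals were between 4130644 and 5072216 counts. "Normalized counts" below are counts scaled to a common library size with TMM factors, which were between 0.965 and 1.05. Log2 fold changes and adjusted p-values are from the quasi-likelihood test of edgeR fitted to all 12 libraries, with the Benjamini-Hochberg adjustment over all tested genes. A gene is called at an adjusted p under 0.05. The study's methods describe replicate wells seeded for each condition. Neither they nor the labels say whether the 3 libraries of a group came from separate days. The p-values therefore measure the spread between these libraries, which may be that between wells treated in parallel or technical. The epithelial markers KRT8 and KRT18 were low in A2780 control, at means of 15.6 and 25.5 normalized counts, and EPCAM had 11 counts over the 3 libraries, while the mesenchymal marker VIM was at 2006. KRT8 was lower and KRT18 higher in Acis control, at 4.05 and 143. COL1A2, a fibrillar collagen gene, was at 787 in A2780 control and had 0 counts in Acis control. In bulk RNA, fewer cells that express a gene and less RNA per cell cannot be told apart.

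The spans in the GENCODE 44 annotation of hg38 were between 456.821 kb for FTO and 1504.183 kb for FHIT, against a median of 24251 bases over the 15708 tested genes with an annotation. FHIT lies at chr3:59747277-61251459 on the minus strand. WWOX and FTO share chromosome 16, at chr16:78099400-79212667 and chr16:53701692-54158512, both on the plus strand. IMMP2L, AUTS2 and EXOC4 are on chromosome 7, at chr7:110662644-111562517 (minus), chr7:69598296-70793506 (plus) and chr7:133253073-134066589 (plus). NBEA lies at chr13:34942270-35673022 (plus), RABGAP1L at chr1:174159410-174995308 (plus) and PARD3 at chr10:34109560-34815325 (minus). VPS13B spans 864.315 kb on chromosome 8. Nearly all of each span is intron, since the union of annotated exons covers 3970 bases in IMMP2L and 37700 bases in NBEA, the smallest and the largest of the 10. The template strand holds between 22053 GG dinucleotides in FTO and 67024 in FHIT, against a median of 1553.5 over tested genes.

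The sequences before the start of transcription are shown for 4 genes whose accessibility at the start differed most between the peak lists or was the same in all of them. Each is the 250 bases upstream of the RefSeq start on GRCh38.p14, written 5′ to 3′ on the coding strand. For NBEA, which has a further RefSeq start within the gene, the start at the beginning of the span was used. Capitals mark GGGCGG or its reverse complement CCGCCC (a GC box, the core of Sp1 sites) and CCAAT or its reverse complement ATTGG, and overlapping matches were counted separately. A GC box in this window was found in 42.6% and CCAAT in 32.0% of 35116 RefSeq promoters. A match is a description of letters only.

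NBEA: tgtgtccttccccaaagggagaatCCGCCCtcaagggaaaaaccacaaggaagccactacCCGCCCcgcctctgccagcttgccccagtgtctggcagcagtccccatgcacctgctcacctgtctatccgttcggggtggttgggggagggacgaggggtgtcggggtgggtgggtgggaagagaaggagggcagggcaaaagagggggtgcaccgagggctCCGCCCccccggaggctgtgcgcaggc

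AUTS2: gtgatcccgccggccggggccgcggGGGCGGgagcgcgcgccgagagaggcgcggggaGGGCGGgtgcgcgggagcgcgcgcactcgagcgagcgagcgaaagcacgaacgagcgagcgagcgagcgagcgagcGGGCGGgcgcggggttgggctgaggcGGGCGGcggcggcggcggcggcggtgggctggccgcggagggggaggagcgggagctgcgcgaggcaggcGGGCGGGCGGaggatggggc

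IMMP2L: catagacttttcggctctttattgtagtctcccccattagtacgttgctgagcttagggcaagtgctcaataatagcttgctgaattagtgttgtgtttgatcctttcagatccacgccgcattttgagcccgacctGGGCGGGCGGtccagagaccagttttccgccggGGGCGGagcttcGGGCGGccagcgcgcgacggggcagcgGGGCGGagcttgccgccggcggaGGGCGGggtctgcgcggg

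EXOC4: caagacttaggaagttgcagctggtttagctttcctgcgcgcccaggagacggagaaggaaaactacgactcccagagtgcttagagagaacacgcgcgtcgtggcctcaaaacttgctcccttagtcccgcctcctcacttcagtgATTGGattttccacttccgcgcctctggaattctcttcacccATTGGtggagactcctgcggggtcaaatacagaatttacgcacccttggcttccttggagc

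The NBEA window, chr13:34942020-34942269, has 66.4% GC, 11 CpG dinucleotides and 3 GC boxes. The AUTS2 window, chr7:69598225-69598474, has 82.8% GC, 49 CpG and 6 GC boxes. The IMMP2L window, chr7:111562493-111562742, also has 6 GC boxes, with 61.6% GC and 24 CpG. The EXOC4 window, chr7:133252828-133253077, has 53.6% GC, no GC box and 2 CCAAT matches. GC-rich windows were therefore present both in genes with and in genes without a peak at the start, as described for the peak lists further on.

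Levels differ widely among the 10 genes. In RPKM, counts per kb of all annotated exons scaled to library size, PARD3 was highest in A2780 control at 18.7 ± 0.45 (SD, n = 3), followed by EXOC4 at 11.1 ± 0.059 and VPS13B at 10.5 ± 0.13. FTO at 5.62 ± 0.12 and RABGAP1L at 5.51 ± 0.13 overlapped, as did NBEA at 3.43 ± 0.079 and IMMP2L at 3.21 ± 0.47. WWOX at 1.06 ± 0.078, FHIT at 0.867 ± 0.092 and AUTS2 at 0.193 ± 0.015 were lowest, and these 3 did not overlap each other. In Acis control the order began with PARD3 at 23.0 ± 0.82, VPS13B at 14.5 ± 0.51 and EXOC4 at 10.4 ± 0.26, and NBEA moved down to 0.139 ± 0.019, between FHIT at 0.212 ± 0.010 and AUTS2 at 0.0416 ± 0.012. The precision of the fold changes follows the counts behind them: AUTS2 had 13 counts and FHIT 20 in the 3 Acis control libraries together, whereas VPS13B had 3814.

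**Figure D1:**
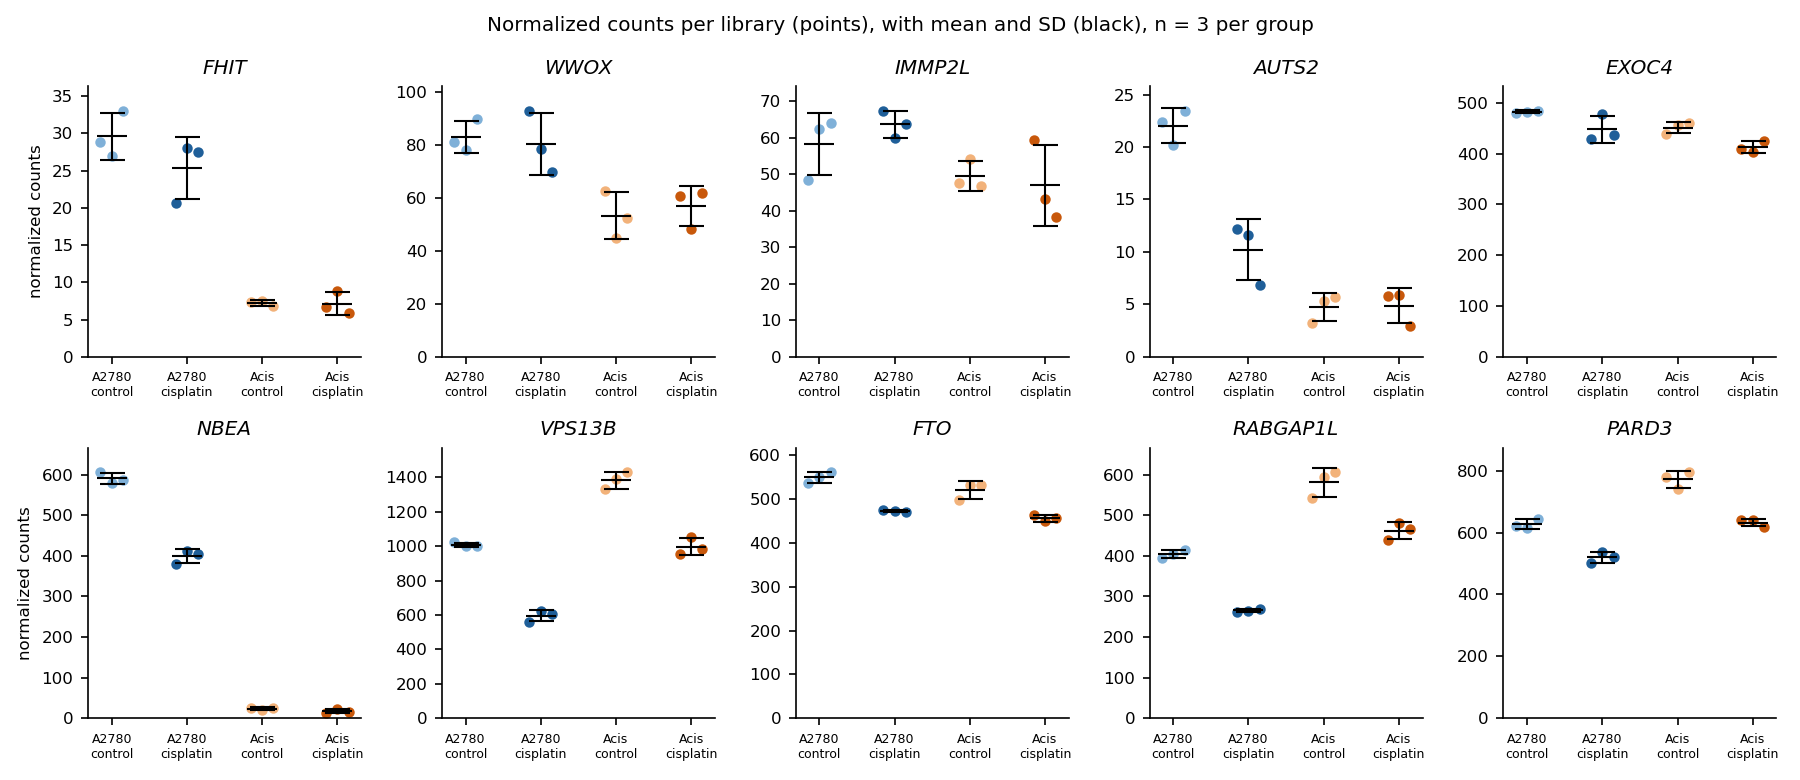
Normalized counts of each gene (vertical axes, from 0) in the 12 libraries (points) by group (horizontal axes), with the mean and SD of 3 libraries in black. VPS13B, RABGAP1L and PARD3 are highest in Acis control, whereas NBEA falls from means of 591 and 399 in the A2780 groups to 24.0 and 16.9 in the Acis groups.

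The first question was how the very long genes respond to cisplatin in the sensitive line. In A2780, 6 of the 10 fell and 0 rose, where 28.2% of all tested genes were called lower and 21.2% higher. The 6 were VPS13B, NBEA, RABGAP1L, PARD3, FTO and AUTS2. With the added requirement of a log2 fold change of at least 1 in size, AUTS2 alone was called lower, against 1.48% of all tested genes, and 0 were called higher, against 4.14%. The median log2 fold change of the 10 was -0.24, against -0.01 over all tested genes.

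VPS13B encodes a very large bridge-like lipid transfer protein of the Golgi, mutated in Cohen syndrome. It was at 1023, 999.7 and 1002 normalized counts in the A2780 controls and at 558.7, 624.2 and 604.8 after cisplatin. The groups did not overlap, and VPS13B decreased by 40.9% (log2 fold change -0.76, SE 0.05, adjusted p = 4.18e-13), the lowest adjusted p of the 6. NBEA encodes neurobeachin, a BEACH-domain protein of membrane traffic in neurons. Its 3 control libraries held 606.1, 579.6 and 587.9 normalized counts and its 3 cisplatin libraries 379.6, 412.2 and 405.5, again without overlap (log2 fold change -0.57, SE 0.05, adjusted p = 3.19e-10). RABGAP1L, a GTPase-activating protein for Rab proteins, went from 395.4, 404.7 and 415.0 to 262.5, 265.2 and 269.0, with a narrow spread in both groups (log2 fold change -0.61, SE 0.06, adjusted p = 4.76e-09).

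The decreases of PARD3 and FTO were smaller. PARD3 encodes the scaffold of the Par polarity complex, which sets up tight junctions and the apical side of epithelial cells. It was at 621.0, 616.1 and 644.4 normalized counts in control and at 502.4, 537.1 and 522.4 after cisplatin. FTO, a demethylase of N6-methyladenosine in RNA, was at 537.1, 549.8 and 561.2 in control and at 474.3, 473.2 and 469.3 after cisplatin. Neither gene overlapped between the groups, and the log2 fold changes were -0.27 (SE 0.05, adjusted p = 2.04e-05) for PARD3 and -0.22 (SE 0.05, adjusted p = 0.00029) for FTO. Scaling by total counts in place of TMM moved the median over all tested genes from -0.01 to 0.10. FTO was then at -0.10 with an adjusted p of 0.0910, and the calls over all tested genes went from 4451 lower and 3347 higher to 3060 lower and 5302 higher.

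AUTS2, a chromatin and transcription regulator of neuronal development, had the largest fold decrease at a low level. It was at 22.4, 20.2 and 23.5 normalized counts in control and at 12.2, 11.6 and 6.87 after cisplatin (log2 fold change -1.09, SE 0.26, adjusted p = 0.00118). These means rest on 67 and 32 counts, and the 95% interval of the log2 fold change was -1.63 to -0.55.

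The 4 genes that did not pass the test in A2780 include FHIT, WWOX and IMMP2L, the 3 whose fragile sites were named above. Fragile sites of the other listed genes were not examined, so no contrast by fragile site is drawn. These 3 genes had 90, 252 and 177 counts in the A2780 control libraries together. FHIT encodes a diadenosine triphosphate hydrolase counted among tumour suppressors, and it was at 28.9, 26.9 and 33.1 normalized counts in control and 20.6, 28.1 and 27.5 after cisplatin. WWOX, an oxidoreductase with WW domains, was at 81.1, 77.9 and 89.6 and then at 92.8, 78.4 and 69.7. IMMP2L, a subunit of the protease complex of the mitochondrial inner membrane, was at 48.5, 62.5 and 64.0 and then at 67.5, 60.0 and 63.8. The groups overlapped for all 3. The 95% intervals of their log2 fold changes were -0.61 to 0.17 for FHIT, -0.29 to 0.22 for WWOX and -0.16 to 0.43 for IMMP2L. EXOC4, a subunit of the exocyst that tethers secretory vesicles at the plasma membrane, was measured far more precisely. It was at 479.3, 482.5 and 484.4 in control and at 428.4, 478.1 and 435.9 after cisplatin, with a log2 fold change of -0.11 (SE 0.05, adjusted p = 0.0847) and a 95% interval of -0.21 to -0.0048. EXOC4 passed the test without A2780 cisplatin replicate 2, at -0.16 with an adjusted p of 0.0224, and under no filter on low counts, at -0.14 with an adjusted p of 0.0371. With total counts as the library size its sign turned, at 0.0093 with an adjusted p of 0.898.

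Span did not order the 10 genes in A2780. All tested genes showed lower medians with longer span in A2780: 0.21 for 4886 genes under 10 kb, 0.09 at 10 to 30 kb, -0.15 at 30 to 100 kb, -0.39 at 100 to 300 kb, -0.43 at 300 to 500 kb, -0.50 at 500 to 1000 kb and -0.51 over 1000 kb. Of the 514 tested genes of at least 300 kb, 63.6% were called lower, so that 6 of 10 is a share near that of very long genes as a class. Among the 10, the Spearman correlation of the log2 fold change with span was -0.04 and with the number of template GG dinucleotides -0.13 (n = 10 genes that share the 12 libraries, given as a description). In Acis the same correlations were 0.66 and 0.60. WWOX, of 1113.268 kb, and IMMP2L, of 899.874 kb, had log2 fold changes of -0.04 and 0.14, whereas NBEA, of 730.753 kb, was at -0.57.

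**Figure D2:**
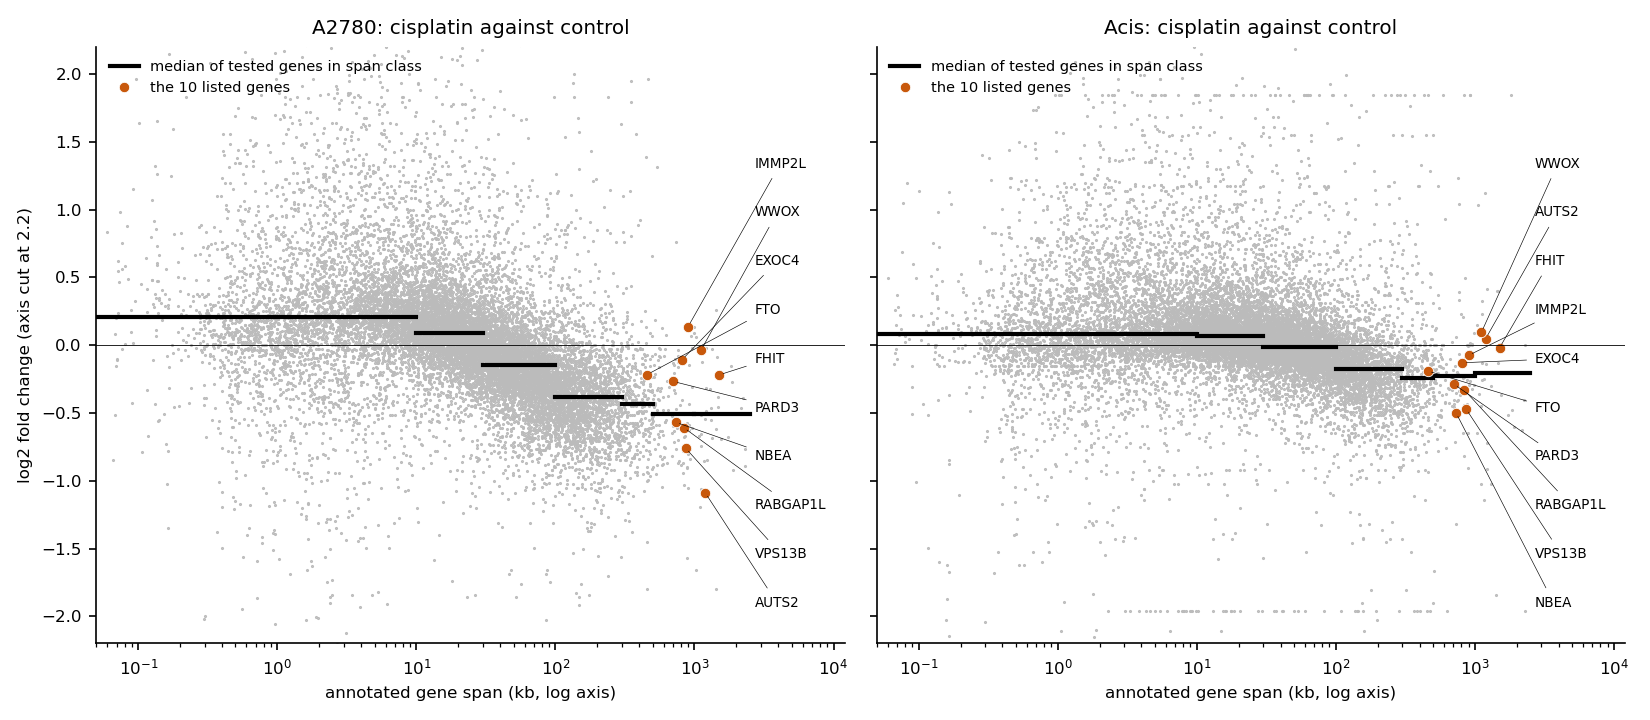
Log2 fold change after cisplatin (vertical axis, cut at 2.2) against annotated gene span in kb (horizontal log axis) for all tested genes (grey) in A2780 (left) and Acis (right), with the median of each span class (black lines) and the 10 genes (orange). In A2780 the class medians go from 0.21 to -0.51, and IMMP2L, WWOX, EXOC4, FTO, FHIT and PARD3 lie above the line of their class.

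The same question was asked in the resistant line. In Acis, 4 of the 10 fell and 0 rose, where 12.4% of all tested genes were called lower and 9.35% higher. The 4 were VPS13B, RABGAP1L, PARD3 and FTO, all of which also fell in A2780. None of the 10 reached a log2 fold change of 1 in size with an adjusted p under 0.05, a call made for 0.374% of all tested genes as lower and 1.64% as higher. The median log2 fold change of the 10 was -0.16, against 0.01 over all tested genes and -0.24 over the 514 genes of at least 300 kb, of which 36.6% were called lower.

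VPS13B was at 1333, 1387 and 1430 normalized counts in the Acis controls and at 954.6, 1053 and 985.8 after cisplatin, without overlap (log2 fold change -0.47, SE 0.04, adjusted p = 1.58e-09). RABGAP1L was at 541.1, 595.0 and 606.1 in control and at 438.4, 481.2 and 466.4 after cisplatin (log2 fold change -0.33, SE 0.05, adjusted p = 2.02e-05). PARD3 went from 779.9, 741.9 and 795.2 to 638.9, 639.7 and 618.6 (log2 fold change -0.29, SE 0.04, adjusted p = 1.20e-05). In all 3 genes each cisplatin library was below every control library. FTO was at 496.6, 532.2 and 532.0 in control and at 463.4, 448.8 and 455.6 after cisplatin, also without overlap (log2 fold change -0.19, SE 0.05, adjusted p = 0.00441). With total counts as the library size FTO was at -0.14 with an adjusted p of 0.0519.

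EXOC4 again missed the threshold by little. Its levels were 438.2, 455.6 and 459.1 in the Acis controls and 408.7, 402.5 and 425.1 after cisplatin (log2 fold change -0.13, SE 0.05, adjusted p = 0.0925), and with the RLE size factors it passed, at -0.15 with an adjusted p of 0.0492. NBEA was at 25.5, 20.2 and 26.2 and then at 13.4, 22.6 and 14.7, overlapping groups that rest on 66 and 52 counts. Its log2 fold change of -0.50 (SE 0.24, adjusted p = 0.178) had a 95% interval of -0.995 to -0.00038, which includes the value in A2780. The interval excludes 0 although the unadjusted edgeR p was 0.0600, so it is too narrow at these counts. FHIT, WWOX, IMMP2L and AUTS2 were at -0.02, 0.09, -0.07 and 0.05, with adjusted p-values between 0.758 and 0.996. The 95% interval for AUTS2 in Acis was -0.92 to 1.02.

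Whether the 2 lines differ in their response was tested with the interaction term, the log2 fold change in Acis minus that in A2780. It was called positive, a smaller decrease in Acis, for 2 of the 10, VPS13B and RABGAP1L, and negative for 0, where 13.4% of all tested genes were called positive and 5.48% negative. Of the 514 tested genes of at least 300 kb, 14.8% were called positive and 1.17% negative, so the 10 are near that class. The split over all tested genes depended on the scaling, with 2113 positive and 863 negative calls here and 1463 and 1572 with total counts as the library size. For VPS13B the difference was 0.29 (SE 0.06, adjusted p = 0.00147) and for RABGAP1L 0.28 (SE 0.08, adjusted p = 0.0146). The call of RABGAP1L was lost with DESeq2 (0.26, adjusted p = 0.112), with total counts as the library size (0.22, adjusted p = 0.0565) and without Acis control replicate 1 (0.23, adjusted p = 0.0502). Both genes were also higher in Acis than in A2780 before treatment, a comparison that shares its control libraries with this term. PARD3 and FTO had differences of -0.02 and 0.03 between the lines, with 95% intervals of -0.15 to 0.11 and -0.11 to 0.16. For AUTS2, called in A2780 alone, the difference was 1.14 (SE 0.55, adjusted p = 0.201), so a difference in response was not shown.

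**Figure D3:**
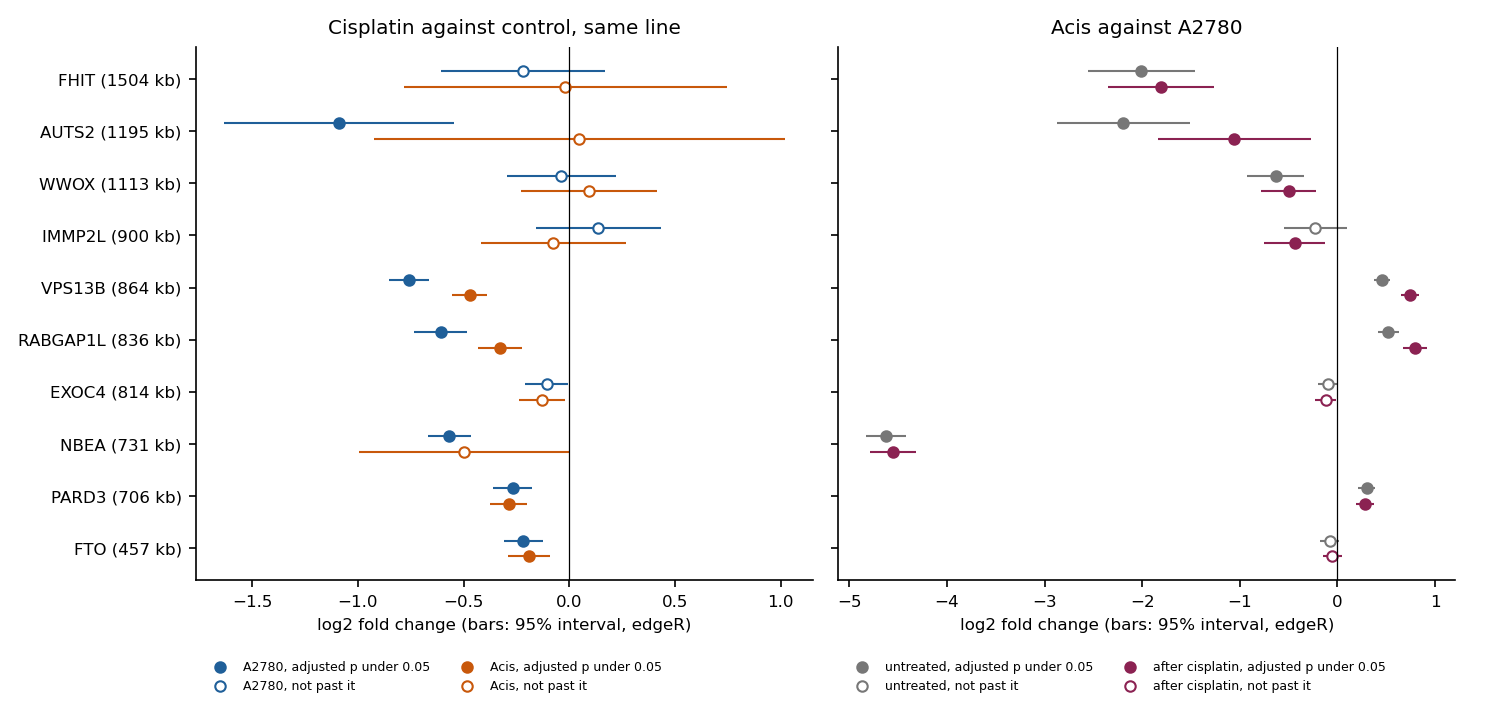
Log2 fold changes with 95% intervals from edgeR (horizontal axes) for the 10 genes in order of span (vertical axis), after cisplatin within each line (left) and between the lines (right). Filled points have an adjusted p under 0.05. In the left panel 6 genes are filled for A2780 and 4 for Acis, and in the right panel NBEA stands at -4.62 and -4.55.

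The untreated lines were compared next, to see how the very long genes differ between the resistant and the sensitive cells without new damage. In Acis control against A2780 control, 4 of the 10 were lower and 3 higher, where 30.6% of all tested genes were called lower and 28.2% higher. Lower were NBEA, AUTS2, FHIT and WWOX, and higher were RABGAP1L, VPS13B and PARD3. With a log2 fold change of at least 1 in size, NBEA, AUTS2 and FHIT were called lower, where 12.2% of all tested genes were, and 0 were called higher, where 6.99% were. The comparison shares its control libraries with both cisplatin comparisons.

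NBEA had the largest difference of the 10. Against 606.1, 579.6 and 587.9 normalized counts in the A2780 controls stood 25.5, 20.2 and 26.2 in the Acis controls, 24.6-fold lower (log2 fold change -4.62, SE 0.10, adjusted p = 1.95e-24). AUTS2 was at 3.18, 5.32 and 5.70 in the Acis controls, 4.57-fold lower than in A2780 (log2 fold change -2.19, SE 0.33, adjusted p = 1.94e-06). FHIT was at 7.43, 7.45 and 6.84 in the Acis controls, 4.02-fold lower (log2 fold change -2.01, SE 0.26, adjusted p = 2.23e-07). WWOX was at 62.6, 44.7 and 52.4, a log2 fold change of -0.63 (SE 0.14, adjusted p = 0.00042). No Acis control library reached the lowest A2780 control in any of the 4 genes.

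The 3 genes that were higher in Acis differed by less. RABGAP1L was higher by 0.52 on the log2 scale (SE 0.05, adjusted p = 1.77e-09), VPS13B by 0.46 (SE 0.04, adjusted p = 1.36e-10) and PARD3 by 0.30 (SE 0.04, adjusted p = 8.38e-07), and in each the groups did not overlap. IMMP2L, EXOC4 and FTO were not called. Their log2 fold changes were -0.22, -0.10 and -0.08, with 95% intervals of -0.55 to 0.10, -0.20 to 0.0091 and -0.17 to 0.017. Genes of 500 to 1000 kb as a class were more often lower than higher in Acis, with 83 and 38 of 141, and so were those over 1000 kb, with 26 and 11 of 40.

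After cisplatin, 5 of the 10 were lower and 3 higher in Acis than in A2780, where 31.2% of all tested genes were called lower and 31.8% higher. The 3 higher genes and the 4 lower genes of the untreated comparison were called in the same direction, and IMMP2L was added at -0.44 (SE 0.15, adjusted p = 0.0141). NBEA was at -4.55 (SE 0.11, adjusted p = 7.72e-23), FHIT at -1.81, AUTS2 at -1.05 and WWOX at -0.50. RABGAP1L, at 0.80 (SE 0.06, adjusted p = 3.26e-12), and VPS13B, at 0.74 (SE 0.05, adjusted p = 8.05e-14), were further apart between the lines after treatment than before. EXOC4 was at -0.12 (SE 0.05, adjusted p = 0.0543), and passed with the RLE size factors (-0.14, adjusted p = 0.0224), with total counts as the library size (-0.17, adjusted p = 0.00451), with a mean of at least 50 counts required (-0.17, adjusted p = 0.00501) and with only the 2 groups compared (-0.14, adjusted p = 0.0416). The calls of IMMP2L and AUTS2 were lost with DESeq2 and when single libraries were left out. Without Acis cisplatin replicate 3 IMMP2L was at -0.30 (adjusted p = 0.116) and AUTS2 at -0.80 (adjusted p = 0.127). AUTS2 was also lost without A2780 cisplatin replicate 1 (adjusted p = 0.0975) or 2 (adjusted p = 0.0747), and IMMP2L without Acis cisplatin replicate 2 (adjusted p = 0.0602).

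The nearest tested protein-coding gene on each side of each of the 10 and the tested genes that overlap them show whether a line difference extends beyond the gene. Among the 20 flanking genes, 10 were lower and 4 higher in Acis control, against 30.6% and 28.2% of all tested genes. Around NBEA, MAB21L1 and DCLK1 were nearly absent in Acis control, whereas RFC3 was lower by less. MAB21L1, a small gene inside an intron of NBEA on the opposite strand and known from eye development, had 2203 counts in the 3 A2780 control libraries and 1 in the 3 Acis control libraries. DCLK1, a microtubule-associated kinase 95.6 kb beyond the end of NBEA, had 59 and 0. RFC3, a subunit of the clamp loader of replication 976 kb before NBEA, was at 431 and 254 normalized counts (log2 fold change -0.76, adjusted p = 2.05e-12). The libraries are stranded and were counted by strand, so reads of NBEA and MAB21L1 were kept apart. After cisplatin in A2780, MAB21L1 had a log2 fold change of -0.11 (adjusted p = 0.0447) where NBEA, its host, was at -0.57.

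At other loci some neighbours differed between the lines in the direction of the listed gene and others did not. LRRN3, a leucine-rich repeat gene within IMMP2L on the opposite strand, was lower in Acis control (log2 fold change -2.43, adjusted p = 3.59e-09), whereas IMMP2L was not called. IRX3, a homeobox gene 125 kb beyond FTO, was at 36.8 normalized counts in A2780 control and 1.47 in Acis control (log2 fold change -4.56, adjusted p = 3.77e-11), and FTO was not called. NRP1, a semaphorin and VEGF co-receptor 773 kb from PARD3, was at 99.3 and 1.82 (log2 fold change -5.69, adjusted p = 5.40e-15), while PARD3 was higher in Acis. GALNT17, a glycosyltransferase gene 339 kb beyond AUTS2, had 0 counts in A2780 control and 260 in Acis control, the opposite direction to AUTS2, whereas TYW1, on the other side of AUTS2, was lower in Acis (log2 fold change -0.20, adjusted p = 0.0136). Beside VPS13B, which was higher in Acis, FBXO43 was higher as well (log2 fold change 0.47, adjusted p = 0.0122) and OSR2 lower (-0.51, adjusted p = 4.85e-05). At the FHIT locus, PTPRG was lower in Acis (log2 fold change -0.88, adjusted p = 4.77e-16), and CFAP20DC had 1 count in A2780 control and 40 in Acis control.

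**Figure D4:**
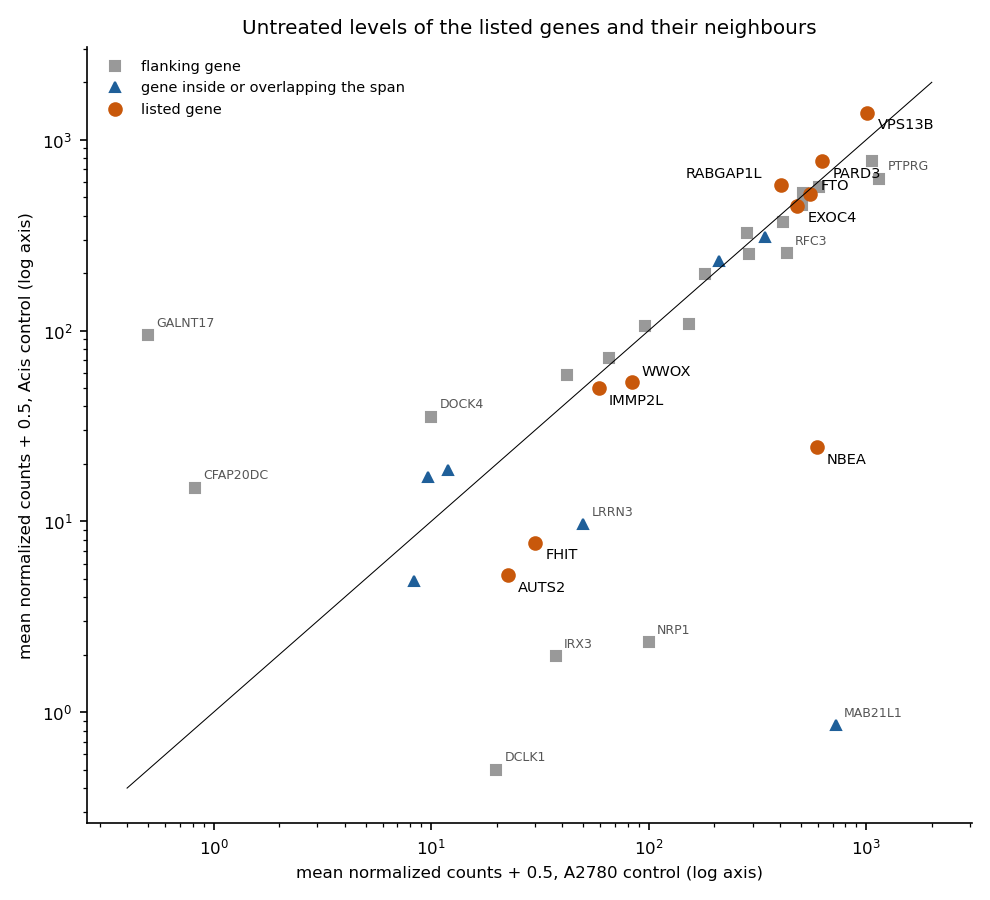
Mean normalized counts plus 0.5 in A2780 control (horizontal log axis) and Acis control (vertical log axis) for the 10 genes (circles), their flanking genes (squares) and the genes that overlap them (triangles), with the line of equal level. NBEA, MAB21L1 and DCLK1 lie far below the line, and GALNT17, CFAP20DC and DOCK4 lie above it.

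By the study's methods, each ATAC-seq list holds the regions that were found in all replicates of its condition. The replicate numbers taken here were 3 for each control and 2 for each cisplatin condition, which the paper's methods do not state. With these numbers a control region had to recur in more libraries. The lists give no values per replicate, so no test was made, and the lists differ in size, with 34979 and 32159 peaks for A2780 without and with cisplatin and 24485 and 27321 for Acis. Within the 10 spans these lists, in the same order, held 89, 56, 14 and 19 peaks. NBEA had 44 of the 89 in A2780 control and 28 of the 56 in A2780 cisplatin, and 0 in both Acis lists. In peaks per 100 kb NBEA was at 6.02 and 3.83 in the A2780 lists, where the median of tested genes of at least 300 kb was 0.587 and 0.537. The NBEA peaks reached from the start to 689 kb into the gene, and most lay in its distal part, where MAB21L1 is centred 534 kb from the start. A further RefSeq start of NBEA itself lies there, at chr13:35476809. The A2780 control peak at chr13:35476395-35477026, with a fold enrichment of 6.43, covers it. Which of the 2 genes such peaks belong to was not tested. In the 500 kb beyond the end of NBEA there were 15 and 5 peaks in the A2780 lists and 0 in the Acis lists. In the 500 kb before its start there were 0 and 1 in the A2780 lists and 0 in the Acis lists. Chromosome 13 as a whole held 2.03% of the A2780 control list and 1.30% of the Acis control list.

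A peak within 1 kb of the start of the canonical transcript was listed for 9 of the 10 genes in A2780 control, 10 in A2780 cisplatin and 8 in each Acis list, where 72.9%, 74.4%, 66.4% and 70.7% of tested genes had one. FTO, EXOC4 and WWOX had the highest fold enrichments over the local background, at 27.4, 26.7 and 22.9 in A2780 control and 29.3, 28.6 and 23.7 in Acis control. EXOC4, the window with no GC box shown above, thus carried one of the strongest start peaks in every list. IMMP2L, whose window has 6 GC boxes, had a start peak in all 4 lists, at up to 9.65 in A2780 control and 11.2 in Acis control. NBEA had a peak over the window printed above at chr13:34941834-34942504 in A2780 control, with a fold enrichment of 7.77, and none near its start in either Acis list. AUTS2, whose window is the richest in GC of the 4, had start peaks in the A2780 cisplatin list alone, 2 peaks of which the higher had a fold enrichment of 5.17.

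VPS13B and RABGAP1L, which were higher in Acis, had fewer peaks within their spans in the Acis lists. In the order of the lists above, VPS13B had 16, 5, 1 and 2 peaks. RABGAP1L had 8, 6, 1 and 2. Their start peaks were listed in all 4, and in Acis control these had fold enrichments of 23.5 and 14.6, against 19.5 and 13.3 in A2780 control. The median of the whole list was also higher in Acis control, at 12.8 against 9.96. Within its list, VPS13B stood at percentile 91.8 against 90.3 and RABGAP1L at 59.3 against 68.2. PARD3, also higher in Acis, had a start peak at 6.01 against 6.40. FHIT, lower in Acis, had one at 21.1 against 19.0. Long genes as a class also had fewer peaks in the Acis lists, with medians of 0.294 and 0.325 per 100 kb in genes of at least 300 kb.

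**Figure D5:**
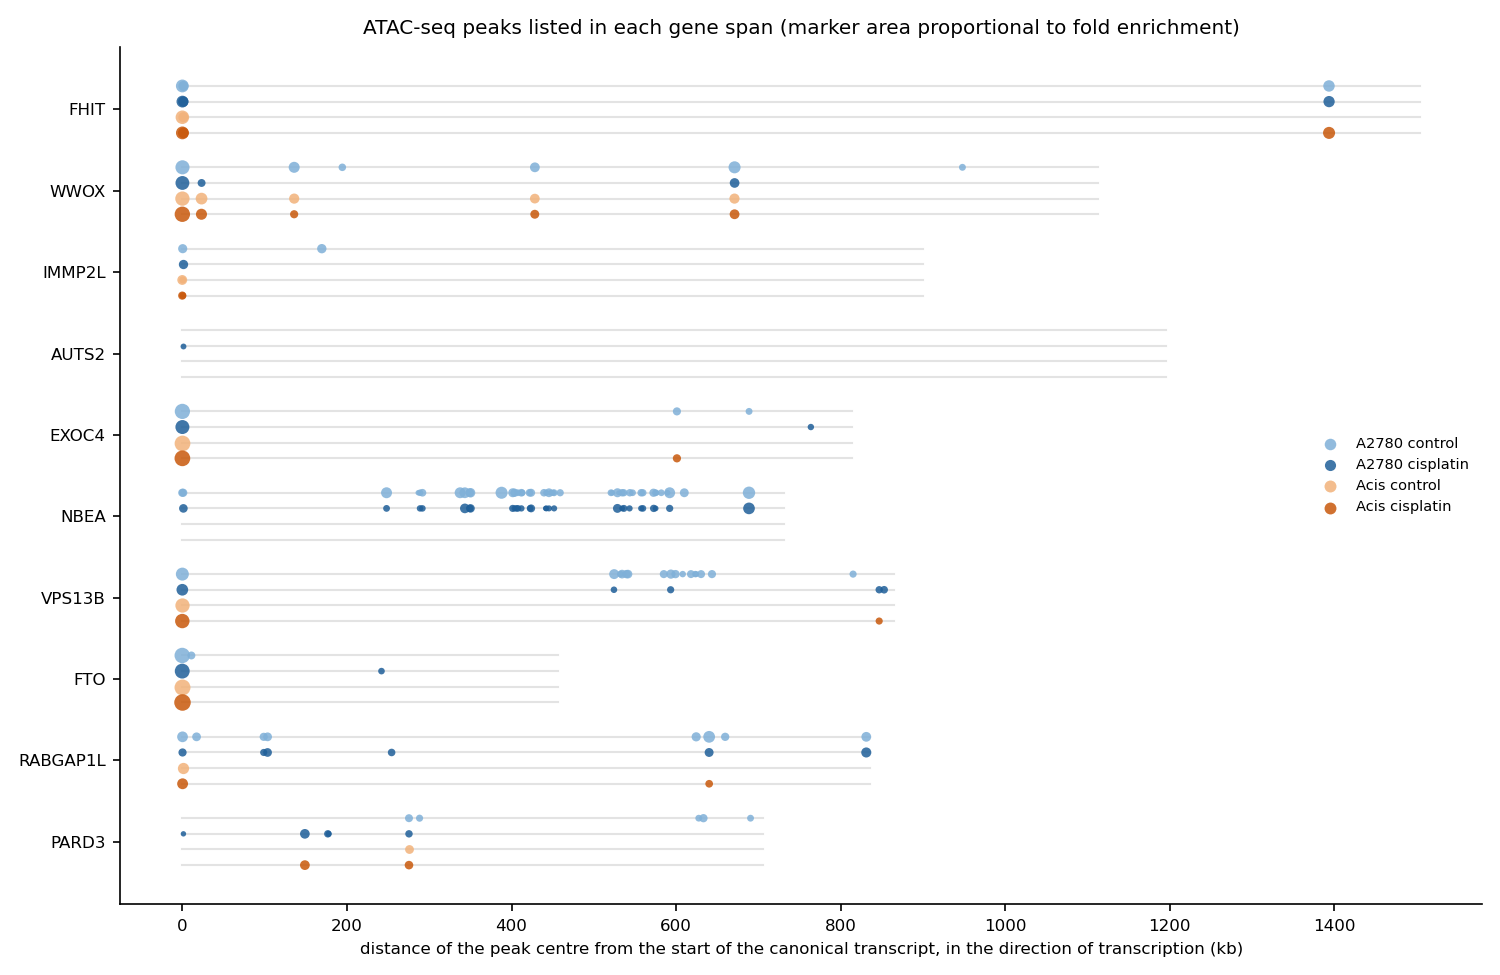
ATAC-seq peaks listed within the span of each gene (rows, 4 lines per gene for the 4 peak lists, by colour), by the distance of the peak centre from the start of the canonical transcript in kb (horizontal axis), with the marker area proportional to fold enrichment. NBEA holds 44 and 28 peaks in the A2780 lists and 0 in the Acis lists.

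Other large genes, most of them known from fragile sites, moved in the same directions after cisplatin. Of 24 listed by name, 14 were tested, and 10 of these fell and 0 rose in A2780, with a median log2 fold change of -0.46. Over all tested genes 28.2% were called lower and 21.2% higher. Of those of at least 300 kb, 63.6% were called lower, with a median of -0.47, so the list is near that class. In Acis 7 fell and 0 rose, with a median of -0.32, or -0.24 when the genes without counts in a group are set at a floor of 3 counts over its libraries. There 12.4% of all tested genes were called lower and 9.35% higher, and 36.6% of those of at least 300 kb were called lower. PDE4D, a cAMP phosphodiesterase, was at -0.69 in A2780 (adjusted p = 5.27e-14) and -0.37 in Acis (adjusted p = 4.81e-09). DMD, the gene of dystrophin, was at -0.39 (adjusted p = 6.73e-12) and -0.40 (adjusted p = 6.45e-09). ESRRG, an orphan nuclear receptor, PTPRG, a receptor tyrosine phosphatase, and GPC6, a glypican, were at -0.87, -0.47 and -0.54 in A2780. The interaction was positive for 3 of the 14: PDE4D at 0.32, PTPRG at 0.25 and DIAPH2, a formin, at 0.36. Over all tested genes 13.4% were called positive, and 14.8% of those of at least 300 kb.

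Between the untreated lines, 8 of the 14 were lower and 5 higher in Acis, against 30.6% and 28.2% of all tested genes. Of tested genes of at least 300 kb, 50.8% were lower and 31.7% higher. Several changed far more than the 10 genes other than NBEA. DPYD, the enzyme that breaks down pyrimidines, had 501 counts in A2780 control and 0 in Acis control, ESRRG 1311 and 1, and GPC6 1087 and 6. In the other direction LSAMP, a cell adhesion molecule, had 9 and 666. DMD was at 3155 and 1205 normalized counts (log2 fold change -1.39, adjusted p = 4.42e-24).

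The partners and paralogs of the 10 genes are mostly shorter, with a median span of 73.2 kb, and all 30 listed were tested. In A2780 16 fell and 6 rose, against 28.2% and 21.2% of all tested genes. In Acis 10 fell and 4 rose, against 12.4% and 9.35%. Relatives of VPS13B and NBEA had the 3 largest decreases that passed the test in A2780, those of NBEAL1, VPS13C and VPS13A. NBEAL1 was at -1.21 (adjusted p = 2.42e-12), VPS13C at -1.05 (adjusted p = 3.27e-14), VPS13A at -0.84 (adjusted p = 3.00e-11), LRBA at -0.57 (adjusted p = 3.80e-12) and VPS13D at -0.54 (adjusted p = 2.34e-10). NBEAL2, a further relative of NBEA, rose by 0.20 (adjusted p = 0.0135). The genes of the first 3 of these span 212, 208 and 244 kb, shorter than NBEA and VPS13B, and their decreases were larger. In Acis the same 3 were at -0.25, -0.31 and -0.14, with interaction terms of 0.96, 0.74 and 0.71 (adjusted p = 8.68e-07, 6.79e-07 and 5.93e-06).

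The other subunits of the exocyst did not follow EXOC4 as a group. In A2780, EXOC1, EXOC2, EXOC5, EXOC6 and EXOC6B fell, with log2 fold changes between -0.61 for EXOC6 and -0.30 for EXOC2. EXOC3 and EXOC7 were at 0.04 each and did not pass the test, and EXOC8, the shortest of them, rose by 0.20 (adjusted p = 0.00382). EXOC5 rose in Acis by 0.17 (adjusted p = 0.0308), where it was at -0.40 in A2780 (interaction 0.57, adjusted p = 2.36e-05).

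Between the lines, 8 of the 30 partners and paralogs were lower and 9 higher in Acis control, against 30.6% and 28.2% of all tested genes. PARD6B, the Par complex partner of PARD3, was at -1.09 (adjusted p = 1.37e-13) where PARD3 itself was at 0.30. RABGAP1, the paralog of RABGAP1L, was at -0.72 (adjusted p = 5.69e-13), opposite to RABGAP1L. NBEAL2 was higher by 0.78 (adjusted p = 2.21e-11), EXOC6B lower at -0.66 (adjusted p = 7.56e-10), and PARD3B had 8 counts in A2780 control and 84 in Acis control. ALKBH5, METTL3 and METTL14, the other demethylase and the methyltransferase subunits of N6-methyladenosine, were at -0.0056, -0.11 and -0.05, and as with FTO none was called.

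Across the 12 libraries, the tested gene whose log2 CPM profile was most like that of VPS13B was PDE4D, with a Pearson r of 0.995, and for NBEA it was SLIT2, a guidance ligand gene, with r of 0.998. The most alike gene was ANKRD50 for RABGAP1L (r of 0.995), KDM4C for PARD3 (0.987) and GSK3B for FTO (0.966). LRIF1 was closest to FHIT (0.996), TMEM170B to AUTS2 (0.982), NXPH4 to WWOX (0.968), RNVU1-30 to EXOC4 (0.934) and RCC2P6 to IMMP2L (0.909). These are the highest values over all other tested genes, in libraries that fall into 4 groups, and describe likeness of profile only.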

How the data were processed

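RNA-seq counts were deposited raw. Per the labels and the study's methods, the authors made them from ribosomal RNA-depleted, stranded libraries by alignment to hg38 with STAR 2.7.3, removal of duplicates with Picard, and HTSeq 0.11.1 with reverse strandedness. The annotation release used for counting is not given in the sources used here. The 23622 genes have at least 10 counts over the 12 libraries. For ATAC-seq, reads trimmed with cutadapt 1.15 and aligned with Bowtie2 2.4.1 went into MACS2, with which the authors called peaks per replicate and on pooled reads, keeping regions that overlapped by more than 50% across the replicates of a condition. The deposited peak lists carry a fold enrichment over local background (a ratio), a pileup signal, and p- and q-values as -log10. Duplicate removal can lower the counts of abundant short genes. XR-seq was not analysed here.

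The members and the gene lists were chosen with earlier results of these data known. Counts were filtered with filterByExpr, scaled with TMM and tested with edgeR 4.0.16 (limma 3.58.1, R 4.3.3) in a model of the 4 groups with 8 residual degrees of freedom. Intervals are 95%. Named genes of the other lists are the 5 with the smallest adjusted p in the A2780 cisplatin comparison and in the comparison of the untreated lines, and genes named besides these were chosen after their values were seen. Spans and neighbours are from GENCODE 44, in which 23513 identifiers matched. Peaks counted within a span at an overlap of 1 base, and at a start within 1 kb of it. The scripts were tested on simulated data. Alternatives were DESeq2 1.42.0, other scalings and filters, single comparisons, omission of each library, a replicate block, and other peak limits. Replicate pairs differed by 0.732 to 1.53 times counting noise, and none was taken as a duplicate. VPS13B sequence, protein sequences, and the genes KRT19, PAX8, WT1, PTPRC, PECAM1, NAALADL2, DAB1, RBFOX1, CDH13 and FOXP1 were not analysed here, and MACROD2, RORA and THSD7A were below the filter.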

Additional observations from a re-analysis of the deposited data

Results flagged for a closer look

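The response to cisplatin differed between the lines for 2 of the 10 genes, by the test of the difference itself in edgeR. VPS13B decreased less in Acis, with a difference of 0.289 on the log2 scale (adjusted p = 0.00147). RABGAP1L decreased less in Acis as well, with a difference of 0.278 (adjusted p = 0.0146). The call of RABGAP1L was lost with DESeq2 (adjusted p = 0.112), with total counts as the library size (0.0565) and without Acis control replicate 1 (0.0502). All 3 cisplatin libraries of each line were below all 3 of its controls in both genes, which does not bear on the difference between the lines. Over all tested genes, 13.4% had a positive call in the main analysis, and with total counts as the library size 1463 genes were positive and 1572 negative. Of tested genes of at least 300 kb, 14.8% had a positive call in the main analysis and 1.17% a negative one.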

How the results depend on the processing

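The number of the 10 genes called lower or higher stayed within 1.5 times its value under every alternative other than those given here. In Acis control against A2780 control, 2 were lower with a mean of at least 50 counts required, a filter that 8 of the 10 pass (4 otherwise). Over all genes, 3410 of 10898 tested were lower under that filter, and 4829 of 15760 in the main analysis. In Acis cisplatin against A2780 cisplatin, 3 were lower with DESeq2 (5 otherwise), and between 3 and 6 with single libraries left out, EXOC4 being the sixth. Of all tested genes, 4596 of 23164 were lower here with DESeq2, and 4912 of 15760 in the main analysis. Positive interactions numbered 1 with DESeq2 and 1 with total counts as the library size (2 otherwise), and between 1 and 2 with single libraries left out. Among all tested genes, 1100 of 11257 were positive with DESeq2, 1463 of 15760 with total counts and 2113 of 15760 in the main analysis. With the 20000 peaks of highest -log10 q per list, 47, 23 and 10 peaks lay in the 10 spans in A2780 control, A2780 cisplatin and Acis cisplatin (89, 56 and 19 otherwise), since fewer peaks enter.

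Signs turned for values near 0 that were not called. In A2780 after cisplatin, WWOX was at 0.079 and EXOC4 at 0.0093 with total counts, and WWOX at 0.021 with the filter of 50. In Acis, FHIT was at 0.034 with total counts. Interactions were -0.035 with total counts and -0.022 with the filter of 50 for FTO, and 0.0053 for EXOC4 and -0.019 for NBEA with the closest pair of replicates merged. The cause was not tested.

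With single libraries left out, log2 values that changed sign were, in A2780 after cisplatin, -0.16 to 0.0508 for WWOX. They were, in Acis after cisplatin, -0.20 to 0.0986 for FHIT, -0.0272 to 0.23 for WWOX, -0.28 to 0.0519 for IMMP2L and -0.17 to 0.30 for AUTS2. They were, for the interaction, -0.0515 to 0.0293 for EXOC4, -0.19 to 0.22 for NBEA, -0.00122 to 0.0470 for FTO and -0.0486 to 0.00515 for PARD3.

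Counts over all tested genes moved by more than 1.5 times in A2780 after cisplatin for higher calls, at 3347 in the main analysis, 2007 with DESeq2 and 5302 with total counts. In Acis after cisplatin, 1962 lower and 1474 higher became 1529 and 533 with DESeq2 and 1411 and 2346 with total counts. They became 1503 and 818 with the closest pair of replicates merged. For the interaction, 2113 positive and 863 negative became 1100 and 298 with DESeq2, 1463 and 1572 with total counts, and 1650 and 1427 with the filter of 50. With the closest pair of replicates merged they became 1396 and 486. Negative interactions also went to 525 without Acis control replicate 1 and to 550 without Acis cisplatin replicate 2. Replicate numbers did not pair the libraries, as correlations of deviations between equal numbers were -0.205 to 0.282. With the replicate number as a block, 6 and 4 of the 10 were lower after cisplatin in A2780 and Acis, and no call of the 10 changed. Of 15760 tested genes, 4487 and 2024 were lower with the block. Depth limits AUTS2, FHIT and NBEA in Acis, at 13, 20 and 66 counts over the control libraries.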
